A study of Homo sapiens with 4 samples.

Results

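The genes described here are 37 genes of the lysosome and of its transcriptional control. All were chosen by name, with earlier results of these data known. They comprise 6 membrane proteins (LAMP1, LAMP2, CD63, SCARB2, NPC1 and MCOLN1), 12 proteases, 7 glycosidases, 5 lipid hydrolases or lipid-handling proteins, 4 proton-pump genes and the 3 MiT/TFE transcription factors TFEB, TFE3 and MITF. Each name matched a single row in both deposited tables, which list 58051 gene identifiers. All 37 passed the filter on low counts, among 18540 genes that did.

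The study measured poly(A) RNA in MCF10A cells, an established line of non-tumorigenic human mammary epithelium. siLMNA cells received an siRNA against LMNA, the gene of lamins A and C, and siLacZ cells received a non-targeting siRNA against LacZ. Both groups were transfected at 50 nM with RNAiMAX and collected after 48 h, and each holds 2 libraries. All cells were grown in DMEM/F12 with horse serum, epidermal growth factor, hydrocortisone, cholera toxin and insulin. The labels give LacZ(WT) as the control genotype, and they do not say whether libraries came from separate transfections. The p-values therefore measure only the spread between these libraries, which may be technical. The labels name neither the sequence of the LMNA siRNA nor the number of duplexes in it, and no other siRNA against LMNA is among the groups.

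The lysosome is the acidic compartment in which proteases, glycosidases and lipases break down material delivered by endocytosis and autophagy. A vacuolar proton pump, the V-ATPase, keeps its lumen acidic, and heavily glycosylated membrane proteins such as LAMP1 and LAMP2 line it. Many of its genes carry a CLEAR element near their start, a short palindrome bound by TFEB, TFE3 and MITF, which are held in the cytoplasm when mTORC1 is active at the lysosomal surface. In epithelial cells some cathepsins are also secreted and cut extracellular matrix.

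Of the 37 genes, 22 rose in siLMNA cells, 6 fell and 9 did not pass the test (edgeR quasi-likelihood test, Benjamini-Hochberg adjusted p under 0.05 over all genes tested). That is 59.5% risen and 16.2% fallen. Among all genes tested 26.5 percent rose and 27.8 percent fell, 54.3 percent in either direction. The set was chosen with earlier results of these data known, so these shares describe it and test nothing. The median log2 fold change of the 37 genes was 0.28, against -0.01 over all genes tested, and single genes lay between -0.93 and 2.42. A rise of at least 2-fold was found for 6 of them (CTSB, GAA, CTSF, CTSV, CTSC and CTSA), against 11.3 percent of all genes tested, and no fall reached 2-fold, against 7.15 percent of all genes, the largest being the 1.90-fold fall of GLA. Most of the 37 are well expressed: among the 34 with a mean of at least 10 CPM (read counts scaled to library size), 20 rose (58.8%) and 6 fell (17.6%), against 30.7 percent and 40.2 percent of all genes at that level. Against a null of at most a 1.5-fold change, 9 genes still rose (MCOLN1, CTSA, CTSB, CTSC, CTSF, CTSV, TPP1, GAA and PSAP) and 1 fell (GLA), against 11.4 percent and 9.36 percent of all genes. In bulk RNA, fewer cells expressing a gene and less of its RNA per cell cannot be told apart.

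**Figure D1:**
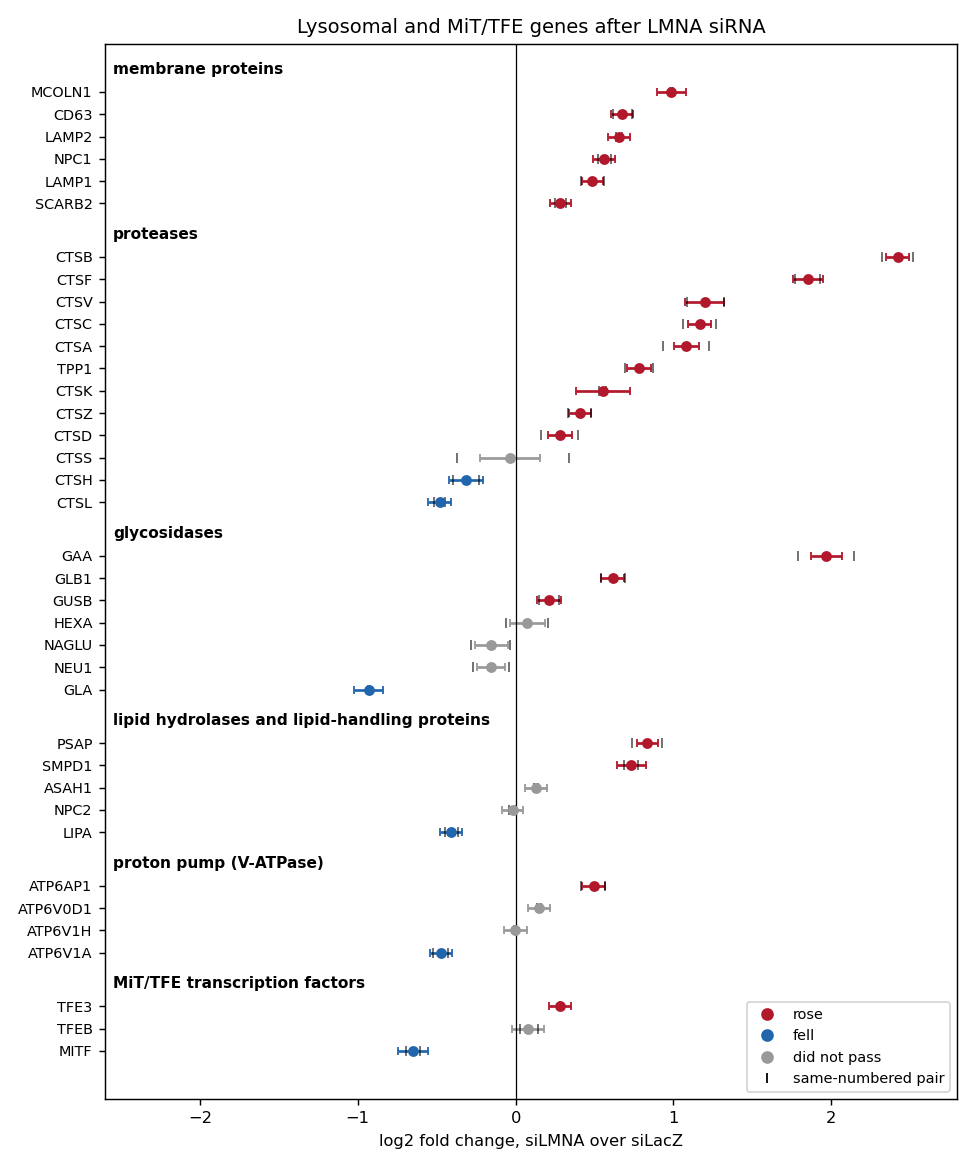
The log2 fold change of siLMNA over siLacZ is plotted for each of the 37 genes, ordered by role, with bars of 1 standard error and ticks for the ratio within each same-numbered pair of libraries. All 6 membrane proteins lie right of 0, CTSB stands farthest right at 2.42 and GLA farthest left at -0.93.

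The libraries held 44472819 and 44236621 counts in siLMNA cells and 42809595 and 46191091 counts in siLacZ cells, so 3 counts correspond to 0.0649 to 0.0701 CPM. LMNA itself had 61.1 and 58.1 CPM in siLMNA cells against 479.8 and 524 CPM in siLacZ cells, 8.42-fold lower (log2 fold change -3.07, SE 0.077). All 8 markers of mammary epithelium were present, and 5 of them rose (KRT17, TP63, CDH3, ITGB4 and EGFR) while KRT14 and EPCAM fell. KRT5 had 6071 and 5387 CPM in siLMNA cells and 5734 and 6154 CPM in siLacZ cells and did not pass the test. KRT17 rose by 2.00 on the log2 scale, KRT14 fell by 0.90 and EPCAM by 0.70. The list summed to 19471 and 17810 CPM in siLMNA cells and 14556 and 15299 CPM in siLacZ cells. Of 7 fibroblast markers, 4 of the 5 tested rose (COL1A1, PDGFRA, DCN and LUM). PDGFRA had only 22 and 10 counts in siLMNA cells and 2 and 1 in siLacZ cells, the latter under 3 counts. The list summed to 766 and 767 CPM in siLMNA cells against 175 and 178 CPM in siLacZ cells. DCN alone had 629 and 639 CPM in siLMNA cells and 160 and 163 CPM in siLacZ cells. COL3A1 was at 0 in all libraries, and THY1 was at 0 in 1 library of each group and under 0.1 CPM in the other. Of 8 macrophage and leukocyte markers only CSF1R and CD14 passed the count filter, and both rose. The list summed to 62.6 and 55.9 CPM in siLMNA cells and 45.2 and 48.8 CPM in siLacZ cells, with MRC1 at 0 in all libraries and PTPRC at 0 in all but 1. The osteoclast markers summed to 7.07 and 7.33 CPM in siLMNA cells and 9.58 and 11.1 CPM in siLacZ cells, with CALCR, DCSTAMP and OCSTAMP at 0. The melanocyte markers summed to 3.82 and 4.12 CPM in siLMNA cells and 3.74 and 2.90 CPM in siLacZ cells, with TYR and SOX10 at 0. What part the genes of these lists have in the lysosomal differences was not tested.

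The transcription factors moved in different directions. TFE3 had 81.6 and 79.3 CPM in siLMNA cells against 67.1 and 65.4 CPM in siLacZ cells, and it rose by 0.28 on the log2 scale (SE 0.071, adjusted p = 0.0029 in edgeR). The groups did not overlap. Without siLacZ 2 the call was lost although the log2 fold change stayed at 0.28, and a fit on fewer libraries has less power. MITF, the family member best known from melanocytes and osteoclasts, had 14.5 and 14.3 CPM in siLMNA cells against 22.2 and 23.1 CPM in siLacZ cells. It was 1.57-fold lower (log2 fold change -0.65, SE 0.094, adjusted p = 1.47e-05), again with no overlap. TFEB had 15.8 and 15.9 CPM in siLMNA cells and 15.5 and 14.4 CPM in siLacZ cells, and its change did not pass the test (log2 fold change 0.082, SE 0.101, adjusted p = 0.527). Per kb of transcript, TFE3 was the highest of the 3 in both groups, at 23.5 CPM per kb in siLMNA cells and 19.4 CPM per kb in siLacZ cells. TFEB stood at 6.73 CPM per kb in siLMNA cells and 6.36 in siLacZ cells, and MITF at 2.99 CPM per kb in siLMNA cells and 4.70 in siLacZ cells. Their RNA says nothing of where the proteins were in the cell.

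Promoter sequence was at hand for 27 of the 37 genes, from 250 bases before to 50 bases after the RefSeq gene start (GRCh38.p14). The promoters were searched for CACGTG, for the longer TCACGTGA and for the full CLEAR palindrome, which is TCACGTGA with a G before it and a C after it. Each reads the same on both strands, and every longer motif contains the shorter ones. CACGTG was found in 9 of the 27 promoters (33.3%), against 7.43% of 27305 promoters of all genes. TCACGTGA was in 5 (18.5%, against 1.04%) and the full palindrome in 2 (7.41%, against 0.381%), those of GAA and MCOLN1. The 27305 promoters include those of genes that did not pass the count filter, whereas all 27 genes passed it. Among tested genes with a promoter sequence, CACGTG was present in 1098 and absent from 10042. TCACGTGA was present in 199 of them and absent from 10941, and the full palindrome present in 80 and absent from 11060. A match describes these letters and shows neither binding nor a cause. The 250 bases before the start of GAA, MCOLN1 and LAMP1 are shown because each holds, wholly or in part, 2 sites of TCACGTGA or longer, more than any other of the 27 promoters, with the longest motif at each site in capitals. GAA lies at chr17:80101331-80101580 (plus strand, and GENCODE begins the gene inside this window at 80101556), MCOLN1 at chr19:7522374-7522623 (plus strand) and LAMP1 at chr13:113296989-113297238 (plus strand), where the last 2 capitals open a site that runs across the gene start.
GAA: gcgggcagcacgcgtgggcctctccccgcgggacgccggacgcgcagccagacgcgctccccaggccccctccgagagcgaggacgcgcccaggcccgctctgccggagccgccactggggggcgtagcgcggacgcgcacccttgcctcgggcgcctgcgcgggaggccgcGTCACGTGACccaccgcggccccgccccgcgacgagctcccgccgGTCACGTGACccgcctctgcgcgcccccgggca
MCOLN1: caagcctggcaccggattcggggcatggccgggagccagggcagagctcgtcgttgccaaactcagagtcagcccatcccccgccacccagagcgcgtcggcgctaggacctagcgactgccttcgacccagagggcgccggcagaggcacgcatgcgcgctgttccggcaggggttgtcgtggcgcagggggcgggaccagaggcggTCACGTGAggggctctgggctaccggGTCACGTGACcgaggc
LAMP1: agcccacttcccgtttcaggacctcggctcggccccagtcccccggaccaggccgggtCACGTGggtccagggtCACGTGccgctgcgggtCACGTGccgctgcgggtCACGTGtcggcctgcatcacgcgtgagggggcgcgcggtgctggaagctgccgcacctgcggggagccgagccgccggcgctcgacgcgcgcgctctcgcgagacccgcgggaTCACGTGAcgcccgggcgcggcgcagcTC

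The sites of the other promoters with CACGTG are shown as 30 bases around the motif, in the direction of the gene, so that the flanks of each can be compared with the full palindrome. The windows are chr20:45891281-45891310 for CTSA site 1, chr20:45891298-45891327 for CTSA site 2, chr11:66568712-66568741 for CTSF site 1, chr11:66568640-66568669 for CTSF site 2, chr11:1763957-1763986 for CTSD, chr12:55729172-55729201 for CD63, chr16:67481199-67481228 for ATP6V0D1 and chr6:31862930-31862959 for NEU1, on the plus strand for CTSA and on the minus strand for the others. GENCODE begins CTSA at 45890144, CTSF at 66568841, CTSD at 1764573, CD63 at 55729707 and ATP6V0D1 at 67481237. The windows of these genes therefore lie inside the gene as GENCODE annotates it, and before the RefSeq start. The windows of the CTSA sites overlap, so each shows letters of the other site in capitals at its edge.
CTSA site 1: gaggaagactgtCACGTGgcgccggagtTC
CTSA site 2: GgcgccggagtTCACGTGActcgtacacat
CTSF site 1: acatataacaagCACGTGatagaggtcagt
CTSF site 2: ccctgcgcgcccCACGTGcctcctgtaaac
CTSD: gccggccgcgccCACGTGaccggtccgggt
CD63: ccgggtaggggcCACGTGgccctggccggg
ATP6V0D1: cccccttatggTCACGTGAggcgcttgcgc
NEU1: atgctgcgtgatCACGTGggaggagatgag

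Of the 9 genes with CACGTG in the promoter, 7 rose (GAA, CTSF, CTSA, MCOLN1, CD63, LAMP1 and CTSD), none fell, and ATP6V0D1 and NEU1 did not pass the test. Of the 18 genes whose promoter lacked it, 11 rose and 5 fell. The median log2 fold change was 0.68 with the motif and 0.28 without. Among all tested genes with a promoter sequence, CACGTG did not go with more rises. Of the 1098 with it 26.8% rose and 36.8% fell, against 29.7% and 32.9% of the 10042 without it. With TCACGTGA, 4 of 5 genes of the set rose, and without it 14 of 22 (63.6%). Over all tested genes, 34.2% of the 199 with TCACGTGA rose and 29.6% fell, against 29.3% and 33.4% of the 10941 without it. Both genes of the set with the full palindrome rose, and so did 16 of the 25 without it. Over all tested genes, 35.0% of the 80 with the palindrome rose and 32.5% fell, against 29.4% and 33.3% of the 11060 without it. The promoters of CTSB, CTSK, CTSS, PSAP, LAMP2, HEXA, NAGLU, ASAH1, ATP6V1A and ATP6V1H were not used here.

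All 6 membrane proteins rose, against 26.5 percent of all genes tested, with a median log2 fold change of 0.61. None overlapped between groups, while 37.3 percent of all genes tested lay higher without overlap and 38.8 percent lower. CD63, a tetraspanin of lysosomes and exosomes, was the highest of them per kb, at 224 CPM per kb in siLMNA cells and 140.0 in siLacZ cells. It had 276 CPM in each siLMNA library, against 179.7 and 166 CPM in siLacZ cells, a log2 fold change of 0.68 (SE 0.069, adjusted p = 2.5e-07). MCOLN1, the calcium channel of the lysosomal membrane, had 29.5 and 28.7 CPM in siLMNA cells against 15.0 and 14.4 CPM in siLacZ cells. Its log2 fold change of 0.99 (SE 0.090, adjusted p = 5.58e-08) was the largest of the role. The others changed less: LAMP2 by 0.66, the cholesterol exporter NPC1 by 0.56, LAMP1 by 0.49 and SCARB2, the receptor that carries glucocerebrosidase to the lysosome, by 0.28 on the log2 scale.

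Among the 12 proteases, 9 rose (75%), 2 fell (16.7%) and 1 did not pass the test, with a median log2 fold change of 0.67. Of all genes tested, 26.5 percent rose and 27.8 percent fell. CTSB (chr8:11842524-11869448, minus strand), a cysteine endopeptidase that also acts as a dipeptidyl carboxypeptidase, changed most of all 37 genes. It had 1667 and 1589 CPM in siLMNA cells against 291 and 317 CPM in siLacZ cells, 5.35-fold higher (log2 fold change 2.42, SE 0.071, adjusted p = 2.39e-14). Both siLMNA libraries stood far above both siLacZ libraries. CTSF (chr11:66563463-66568841, minus strand), another papain-type cathepsin, had 49.98 and 42.9 CPM in siLMNA cells against 13.1 and 12.6 CPM in siLacZ cells, 3.62-fold higher (log2 fold change 1.86, SE 0.095, adjusted p = 3.47e-11). CTSV, a close paralog of CTSL, had 13.6 and 13.5 CPM in siLMNA cells against 5.46 and 6.35 CPM in siLacZ cells, 2.29-fold higher (log2 fold change 1.198, SE 0.13, adjusted p = 3.17e-07). None of these overlapped between groups.

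CTSC, the dipeptidyl peptidase that activates granule serine proteases in immune cells, had 503 and 475 CPM in siLMNA cells against 209 and 227 CPM in siLacZ cells (2.24-fold higher, log2 fold change 1.17, SE 0.071, adjusted p = 3.33e-10). CTSA, the serine carboxypeptidase that protects NEU1 and GLB1 in a shared complex, had 95.5 and 84.0 CPM in siLMNA cells against 40.8 and 44.0 CPM in siLacZ cells (2.12-fold higher, log2 fold change 1.08, SE 0.081, adjusted p = 4.74e-09). The partners of CTSA did not move as one: GLB1 rose and NEU1 did not pass the test. The tripeptidyl peptidase TPP1 rose by 0.78 and the carboxypeptidase CTSZ by 0.41 on the log2 scale. CTSL fell by 0.48 on the log2 scale (SE 0.073, adjusted p = 2.32e-05), at 66.7 and 62.2 CPM in siLMNA cells and 90.7 and 88.9 CPM in siLacZ cells, while its paralog CTSV rose.

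The remaining proteases changed little, or their calls were lost when 1 library was left out, which also lowers the power of the fit. The aspartic protease CTSD had 355 and 304 CPM in siLMNA cells and 270.2 and 273 CPM in siLacZ cells, a log2 fold change of 0.28 (SE 0.076, adjusted p = 0.00463). The call was lost without siLacZ 1 (adjusted p = 0.154), siLacZ 2 (0.141) or siLMNA 1 (0.136). Of the 50-base words in its transcript, 60.6% also occur in other genes, most of all in RP11-295K3.1, a read-through gene, so its reads are uncertain. CTSK, the collagen-cutting cathepsin of osteoclasts, had 5.43 and 4.77 CPM in siLMNA cells and 3.65 and 3.30 CPM in siLacZ cells (log2 fold change 0.55, SE 0.17, adjusted p = 0.0113). That call was lost without siLacZ 1 (adjusted p = 0.0632), siLacZ 2 (0.103) or siLMNA 1 (0.0935). CTSH, an aminopeptidase, fell by 0.31 on the log2 scale (SE 0.11, adjusted p = 0.0205). It lost the call without siLacZ 1 (adjusted p = 0.0904), siLacZ 2 (0.142) or siLMNA 2 (0.154), in DESeq2 (0.0786) and with upper-quartile factors (0.0659). CTSS, which cuts the invariant chain of MHC class II in antigen-presenting cells, had 4.75 and 4.05 CPM in siLMNA cells and 3.76 and 5.25 CPM in siLacZ cells, and the groups overlapped.

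**Figure D2:**
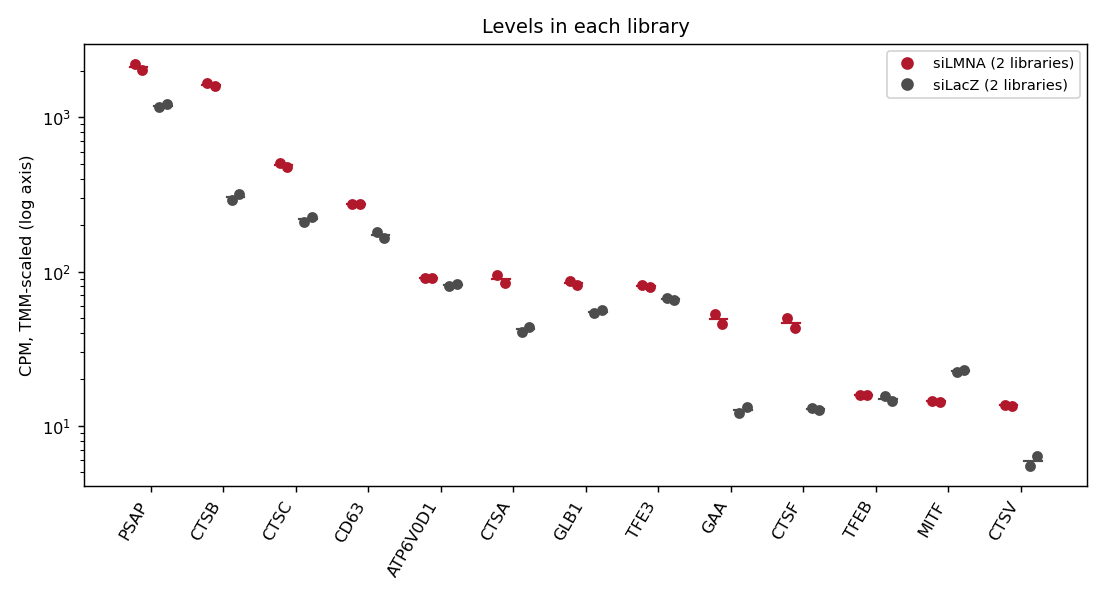
Levels in CPM (log axis) are shown for each library of 13 genes: those at least 2-fold changed, the 3 MiT/TFE factors and the highest gene per kb of each role, with siLMNA in red left of siLacZ in grey and a short line at each mean. CTSB, GAA and CTSF show the widest gaps between groups, and MITF is the one gene plotted that lies lower in siLMNA cells.

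Of the 7 glycosidases, 3 rose (42.9%), 1 fell (14.3%) and 3 did not pass the test, and the median log2 fold change was 0.075. The shares over all genes tested were 26.5 percent risen and 27.8 percent fallen. GAA (chr17:80101556-80119879, plus strand), the acid alpha-glucosidase that degrades glycogen, had 53.2 and 45.9 CPM in siLMNA cells against 12.04 and 13.3 CPM in siLacZ cells, 3.92-fold higher (log2 fold change 1.97, SE 0.096, adjusted p = 1.95e-11). The groups were far apart. The promoter of GAA holds 2 copies of the full palindrome, and whether they have a part in its rise was not tested. GLA (chrX:101397803-101408012, minus strand), the alpha-galactosidase that removes galactose from globosides, went the other way. It had 16.1 and 17.8 CPM in siLMNA cells against 30.9 and 33.7 CPM in siLacZ cells, 1.90-fold lower (log2 fold change -0.93, SE 0.092, adjusted p = 1.57e-07).

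The beta-galactosidase GLB1, whose activity is the common stain for senescent cells, had 87.1 and 81.4 CPM in siLMNA cells against 53.9 and 56.0 CPM in siLacZ cells (log2 fold change 0.62, SE 0.073, adjusted p = 1.48e-06). GUSB, the beta-glucuronidase, rose by 0.21 on the log2 scale (adjusted p = 0.0269), and the call was lost without siLacZ 1 (adjusted p = 0.166), siLacZ 2 (0.0898) or siLMNA 1 (0.177), with library totals alone (0.212) and with no count filter (0.0795). HEXA, a beta-hexosaminidase subunit, NAGLU, which degrades heparan sulfate, and the sialidase NEU1 had log2 fold changes of 0.075, -0.15 and -0.16 (SE 0.11, 0.11 and 0.087). Their adjusted p-values were 0.597, 0.242 and 0.144. HEXA overlapped between groups, and NEU1 passed the test only with library totals alone (adjusted p = 0.0197).

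Among the 5 lipid genes, 2 rose (40%), 1 fell (20%) and 2 did not pass the test, with a median log2 fold change of 0.13. The shares over all genes tested were 26.5 percent risen and 27.8 percent fallen. PSAP (chr10:71816298-71851375, minus strand), the precursor of the saposins that present lipids to hydrolases, was the most abundant of the 37 genes in both groups. It had 2218 and 2029 CPM in siLMNA cells against 1167 and 1215 CPM in siLacZ cells, 1.78-fold higher (log2 fold change 0.83, SE 0.067, adjusted p = 1.14e-08). SMPD1, the acid sphingomyelinase, rose by 0.73 on the log2 scale (24.1 and 23.0 CPM in siLMNA cells, 14.0 and 14.3 CPM in siLacZ cells). LIPA, the acid lipase that frees cholesterol from its esters, fell by 0.41 (151 and 143 CPM in siLMNA cells, 194.7 and 196 CPM in siLacZ cells). NPC2, which hands cholesterol to NPC1, had 166 and 161 CPM in siLMNA cells and 166 CPM in each siLacZ library, so its change did not pass the test while NPC1 rose. The ceramidase ASAH1 had a log2 fold change of 0.13 (SE 0.070, adjusted p = 0.133), and passed only with upper-quartile factors (adjusted p = 0.0224).

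The 4 proton-pump genes split. ATP6AP1, an accessory protein of the pump, had 104 and 95.8 CPM in siLMNA cells against 70.3 and 71.8 CPM in siLacZ cells and rose by 0.49 on the log2 scale (SE 0.073, adjusted p = 1.8e-05). ATP6V1A, the catalytic subunit, had 117 and 123 CPM in siLMNA cells against 168 and 165 CPM in siLacZ cells, and fell by 0.47 (SE 0.069, adjusted p = 1.47e-05). ATP6V0D1, of the membrane sector, had 90.8 and 91.0 CPM in siLMNA cells and 81.2 and 83.0 CPM in siLacZ cells. Its groups did not overlap, yet the change missed the threshold (log2 fold change 0.15, SE 0.070, adjusted p = 0.085), except with upper-quartile factors (0.0126). ATP6V1H, of the cytoplasmic sector, differed by less than the spread between replicates, at 59.1 and 58.6 CPM in siLMNA cells and 59.4 and 58.4 CPM in siLacZ cells. Its log2 fold change of -0.00090 had an SE of 0.072.

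Between them, the groups failed to overlap for 25 of the 37 genes in the higher direction and 8 in the lower one, against 37.3 percent and 38.8 percent of all genes tested. Summed over the 37 genes, the level was 7720 and 7267 CPM in siLMNA cells against 4299.9 and 4419.9 CPM in siLacZ cells. The ratio was 1.72, against 1.07 over all genes tested. CTSB accounted for 42.2% of the difference in the summed level of the 37 genes, PSAP for 29.7% and CTSC for 8.65%. Without CTSB and PSAP the sum was 3835 and 3650 CPM in siLMNA cells and 2842 and 2888 CPM in siLacZ cells, a ratio of 1.31. CTSB made up 21.6% and 21.9% of the summed level in siLMNA cells, against 6.77% and 7.18% in siLacZ cells, while the share of PSAP was 28.7% and 27.9% in siLMNA cells and 27.1% and 27.5% in siLacZ cells.

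By role, the summed level of the proteases was 2.56 times that of siLacZ cells, of the lipid genes 1.54 times, of the membrane proteins 1.45 times and of the glycosidases 1.27 times. The MiT/TFE factors stood at 1.07 times and the proton pump at 0.976 times, beside 1.07 times over all genes tested. Some of these ratios rest on 1 gene. Without PSAP the lipid genes summed to 462 and 444 CPM in siLMNA cells and 486 and 481 CPM in siLacZ cells, a ratio of 0.936, below 1. Without CTSB the ratio of the proteases was 1.56, and without GAA that of the glycosidases was 1.09. The 9 cysteine cathepsins alone summed to 2503 and 2369 CPM in siLMNA cells and 760.1 and 808 CPM in siLacZ cells.

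**Figure D3:**
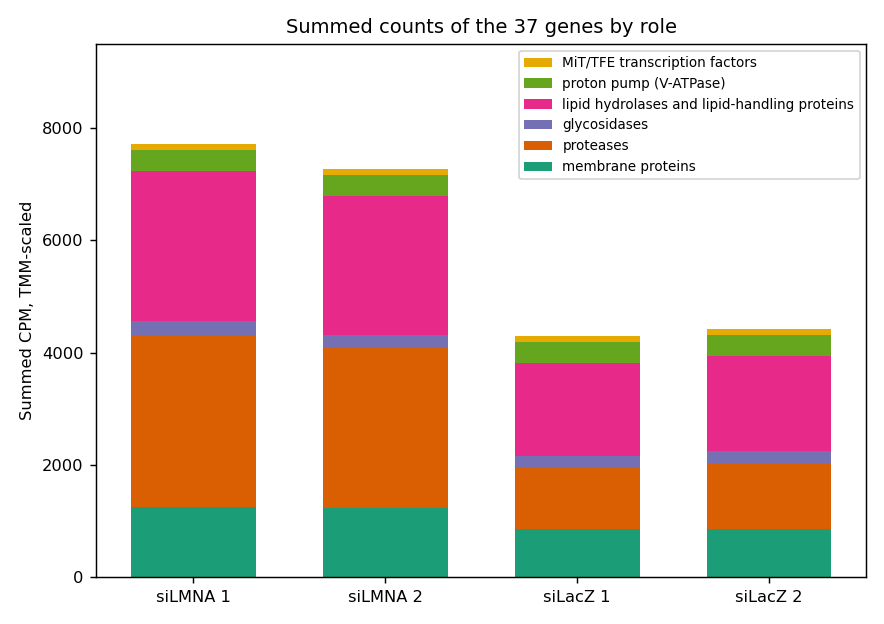
Stacked bars give the summed CPM of the 37 genes by role in each library, with both siLMNA libraries left of both siLacZ libraries. The protease block is the one that differs most, at 3047 and 2842 CPM in siLMNA cells against 1122 and 1177 CPM in siLacZ cells.

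Scaled by transcript length, PSAP stood at 739 CPM per kb in siLMNA cells and 415 in siLacZ cells, the highest of the set in both. CTSB, at 420.1 CPM per kb in siLMNA cells and 78.5 in siLacZ cells, was 2nd in order in siLMNA cells and 8th in siLacZ cells. CTSC followed at 255 CPM per kb in siLMNA cells and 114 in siLacZ cells. GAA moved to place 26 in siLMNA cells, against 33 in siLacZ cells, and CTSF to 22 in siLMNA cells, against 31 in siLacZ cells. The lowest by the mean over both groups were HEXA, CTSK, CTSV and CTSS, with CTSS at 1.07 CPM per kb in siLMNA cells and 1.10 in siLacZ cells. Neighbours in this order such as NPC2, CTSD and LAMP1 in siLMNA cells, at 158, 155 and 147 CPM per kb, lie within the range of the CTSD libraries and are not ordered beyond their spread.

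**Figure D4:**
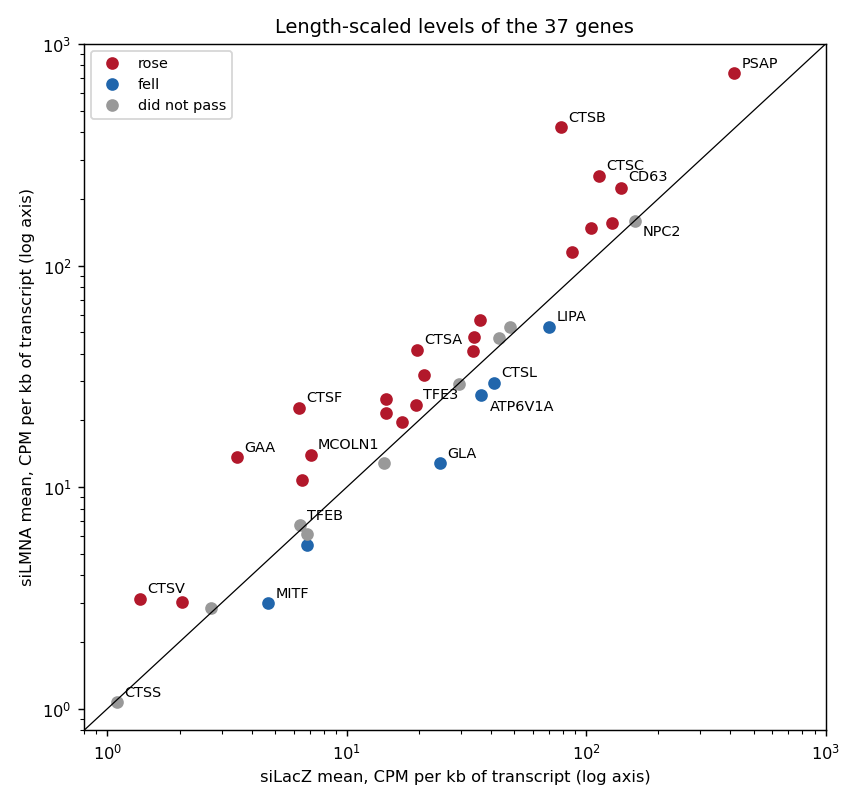
The mean level of each of the 37 genes in siLMNA cells is plotted against that in siLacZ cells, both in CPM per kb of transcript on log axes, with the line of equal levels. PSAP lies at the top of both axes, and CTSB, GAA and CTSF stand farthest above the line.

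The authors' deposited tables compare 1 library of each group at a time, and all 28 genes that passed the test have the same sign there in both pairs. In the authors' deposited tables CTSB has log2 fold changes of 2.51 and 2.27, and GAA of 2.14 and 1.73. CTSD has 0.39 and 0.10 in the authors' deposited tables. The authors' deposited tables give CTSS opposite signs, 0.33 and -0.43, and likewise HEXA, -0.068 and 0.15. Reads of some genes cannot be fully assigned: besides CTSD, the share of 50-base words found in another gene was 17.6% for TPP1, 12.1% for HEXA, 11.4% for NAGLU and 5.95% for MCOLN1, and at most 2.33% for the other genes. The exons of CTSA overlap those of an antisense gene over 28.5% of their length, and whether the counting used strand is not given in the sources used here. Of the 33 genes with under 10% shared words, 20 rose and 6 fell.

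Another 149 genes of the same pathways were listed in 7 groups, and 138 of them passed the count filter. These lists too were chosen with earlier results of these data known. Of the 138 genes, 65 rose (47.1%), 32 fell (23.2%) and 41 did not pass the test, with a median log2 fold change of 0.23. Among all genes tested 26.5 percent rose and 27.8 percent fell. Other lysosomal hydrolases and activators resembled the set, with 18 risen, 5 fallen and 7 that did not pass among 30, and a median of 0.46. CTSO, a further cysteine cathepsin, had 25.3 and 25.6 CPM in siLMNA cells against 7.004 and 8.42 CPM in siLacZ cells (log2 fold change 1.72). The arylsulfatase ARSA rose by 1.31 on the log2 scale. The ganglioside activator GM2A fell by 0.59 and the thioesterase PPT1 by 0.34. The number fallen in this list was 3 with upper-quartile factors, in DESeq2 or with no count filter, and between 2 and 5 without 1 library.

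Other lysosomal membrane proteins were mixed, with 10 risen (41.7%), 7 fallen (29.2%) and 7 that did not pass among 24. Of all genes tested, 26.5 percent rose and 27.8 percent fell. In this list OSTM1 (log2 fold change 1.11) and CLCN7 (0.87), which together form a chloride-proton exchanger, and LAPTM4A (0.70) rose. TMEM192 had 27.7 and 31.0 CPM in siLMNA cells against 69.3 and 68.3 CPM in siLacZ cells and fell by 1.23, while the barely expressed LAMP3 fell by 1.32 and MCOLN2 by 1.22. Without siLacZ 1 this list had 6 risen and 3 fallen, and without siLacZ 2 it had 5 and 3.

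The other V-ATPase genes had 6 risen, 6 fallen and 6 that did not pass among 18, and a median log2 fold change of -0.019. That is 33.3% either way, near the 26.5 percent risen and 27.8 percent fallen of all genes tested. ATP6V0A4, an a-subunit best known from kidney, had 13.9 and 16.3 CPM in siLMNA cells against 3.07 and 3.17 CPM in siLacZ cells (log2 fold change 2.27), and ATP6V1C2 (1.11) and ATP6V1G1 (0.54) rose too. ATP6V0E2 had 9.46 and 8.38 CPM in siLMNA cells against 24.6 and 23.8 CPM in siLacZ cells (-1.44), and ATP6V1F fell by 0.63. ATP6V1B1 fell by 1.48, although 86.2% of its 50-base words also occur in other genes, most of all in VAX2. Without siLacZ 1 this list had 3 risen, and without siLacZ 2 it had 3 fallen.

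The sorting machinery had 6 risen, 6 fallen and 6 that did not pass among 18. That is 33.3% either way, near the 26.5 percent risen and 27.8 percent fallen of all genes tested. The receptor for mannose 6-phosphate IGF2R, which carries new hydrolases to the lysosome, had 575 and 544 CPM in siLMNA cells against 255 and 299.9 CPM in siLacZ cells (log2 fold change 1.01). The sorting receptor SORT1 rose by 0.73 and GNPTG, a subunit of the phosphotransferase that makes the mannose 6-phosphate tag, by 0.57. The retromer subunit VPS29 fell by 0.34 on the log2 scale, and the adaptor subunits AP1G1 and AP1S1 by 0.31 and 0.27. The number fallen was 3 without siLacZ 1, 2 without siLacZ 2 and 3 without siLMNA 2.

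Of 8 cystatins, which inhibit cysteine cathepsins, 4 passed the count filter, of which 2 rose and 1 fell. Of all genes tested, 26.5 percent rose and 27.8 percent fell. CSTA, the cytosolic inhibitor of keratinocytes, had 22.5 and 24.8 CPM in siLMNA cells against 137 and 145 CPM in siLacZ cells (log2 fold change -2.57, SE 0.081, adjusted p = 5.64e-14). The secreted inhibitors CST6 and CST3 rose by 1.61 and 0.55 on the log2 scale, CST3 at 288 and 256 CPM in siLMNA cells against 183 and 189 CPM in siLacZ cells.

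Among the 18 genes of mTORC1 and TFEB control, 5 rose, 5 fell and 8 did not pass, which is 27.8% either way and near the 26.5 percent risen and 27.8 percent fallen of all genes tested. RRAGB, FLCN and FNIP1, which act together in the switch that holds TFEB in the cytoplasm, rose by 0.67, 0.45 and 0.45 on the log2 scale, with 30.9% of the words of FLCN shared with another gene. The Ragulator subunits LAMTOR3 and LAMTOR5 fell by 1.07 and 0.92, and MLST8, a subunit of mTORC1, by 0.72. With library totals alone 8 of this list fell, and without siLacZ 2 it had 3 risen.

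Of the autophagy genes, 18 rose (69.2%), 2 fell (7.69%) and 6 did not pass among 26, with a median log2 fold change of 0.38. The shares over all genes tested were 26.5 percent risen and 27.8 percent fallen. GABARAPL1, an ATG8 protein of the autophagosome membrane, had 95.6 and 94.9 CPM in siLMNA cells against 22.2 and 21.9 CPM in siLacZ cells (log2 fold change 2.11). The initiating kinase ULK1 had 171 and 163 CPM in siLMNA cells against 40.3 and 39.8 CPM in siLacZ cells (2.06). MAP1LC3A rose by 1.13 at a level under 2 CPM. ATG16L1 and ATG7, which take part in conjugating ATG8 proteins to lipid, fell by 0.42 and 0.29 on the log2 scale. The number fallen was 1 with upper-quartile factors, in DESeq2 and without siLacZ 2 or siLMNA 2, and 4 with library totals alone. Against a null of at most a 1.5-fold change, 3 of the 26 rose and none fell, against 11.4 percent and 9.36 percent of all genes tested.

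Against the same null, 11.4 percent of all genes tested rose and 9.36 percent fell. Of the 30 other hydrolases 8 rose and none fell. The other membrane proteins (24 tested) and the other V-ATPase genes (18 tested) each had 2 risen and 2 fallen. The sorting list (18 tested) had 1 risen and none fallen, and the cystatins (4 tested) 1 and 1. The list of mTORC1 and TFEB control (18 tested) had none risen and 2 fallen.

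**Figure D5:**
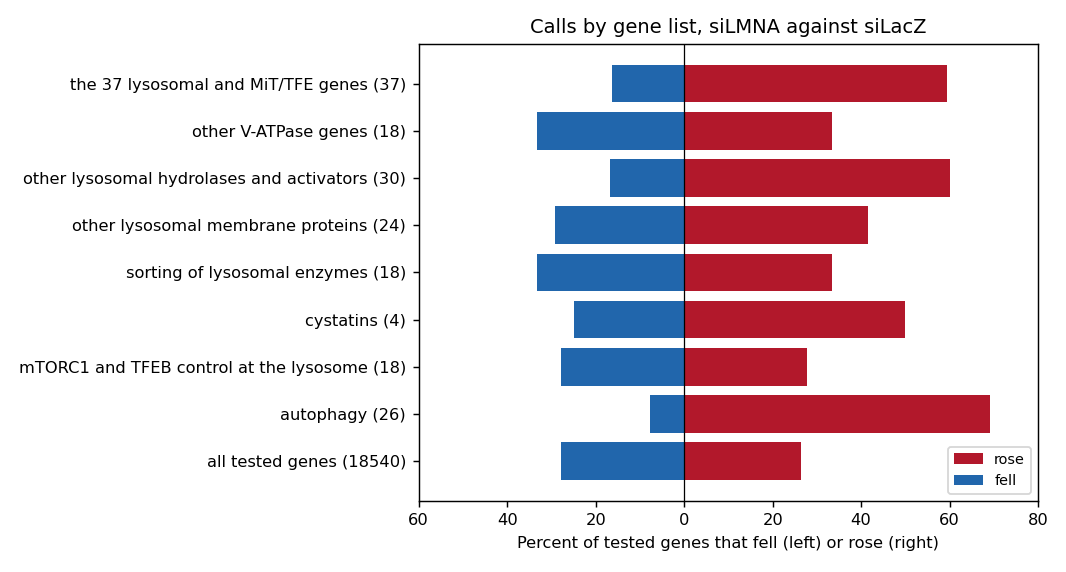
Bars give the percent of tested genes that rose (right) or fell (left) in siLMNA against siLacZ cells for the 37 genes, for each of the 7 other lists and for all genes tested, with the number tested in brackets. Rises outnumber falls for the 37 genes (22 against 6), for autophagy (18 against 2) and for the other hydrolases (18 against 5), and they equal falls for the V-ATPase, sorting and mTORC1 lists.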

How the data were processed

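Poly(A) RNA was sequenced in 2 siLMNA and 2 siLacZ libraries. Per the submitters' processing notes the genome build was hg38. Neither the alignment and counting software nor the use of strand is stated in the labels. The authors deposited raw read counts per gene in 2 tables, each pairing 1 library of either group. Beside them the authors deposited normalized counts, a signal that is the raw count times 1 factor per library, and log2 fold changes within the pair. The direction of the log2 values, siLMNA over siLacZ, was checked against the counts. In 6 genes (CDH1, TWIST1, CCNB1, ZEB1, CLDN1 and OCLN) the deposited raw and normalized counts contradict each other beyond a relative tolerance of 1e-06, or the gene is listed more than once. They were left out. They held 0.447% and 0.273% of the counts in siLMNA libraries and 0.0602% and 0.0623% in siLacZ libraries. Every gene analysed passed this check.

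Counts were tested in edgeR 4.0.16 (R 4.3.3) with TMM factors, filterByExpr and the quasi-likelihood test with group as the one term. P-values were adjusted by the Benjamini-Hochberg method over 18540 genes, with a threshold of 0.05. The common biological coefficient of variation was 0.0655. The standard error is the log2 fold change divided by the square root of F. CPM are TMM-scaled, and levels between genes are CPM per kb of the principal GENCODE 29 transcript. Gene coordinates are those of GENCODE 29 on hg38. Between libraries of 1 group the counts varied beyond counting error, with a chi-square of 7.04 for each degree of freedom between the siLMNA libraries and 9.29 between the siLacZ libraries. Only 2 libraries a group limit the precision, and the floor of 3 counts covers counting error only.

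Alternatives were DESeq2 1.42.0, its size factors, upper-quartile factors, library totals, no count filter, a 1.5-fold null in edgeR, the replicate number as a block, and each library left out. Promoters came from RefSeq (GRCh38.p14). Named were members changed at least 2-fold, the MiT/TFE factors, the highest member per kb of each role, and up to 3 risen and 3 fallen genes of each other list by fold change, of which some are not reported here. Further members are described because every one is accounted for. The members and lists were chosen with earlier results of these data known. Protein identity between cathepsins was planned and not analysed here. The fit was tested on simulated data.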

Additional observations from a re-analysis of the deposited data

How the results depend on the processing

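Over 11 alternatives, the fold changes of the 37 genes and LMNA kept direction and side of the threshold in 367 cases, lost the call in 35, gained it in 3 and changed sign in 13, all of genes that had not passed. With library totals alone the median over all genes moved to -0.11 and 40.5% of calls were higher, against 48.8% with TMM. The median of the 37 genes was then 0.19, and 21 rose and 7 fell. Against a 1.5-fold null, 9 of the 37 rose and 1 fell (all genes 2111 and 1735). Leaving out 1 library gave 18 to 22 risen and 5 to 6 fallen, a median of 0.28 to 0.39, and 3182 to 4283 risen and 3121 to 4696 fallen over all genes. LMNA lay between -3.17 and -2.99 throughout. The signs that changed were those of ATP6V1H (0.017 with DESeq2 size factors, 0.017 in DESeq2, 0.068 with upper-quartile factors, and -0.0078 to 0.0062 without 1 library), CTSS (0.034 with upper-quartile factors and -0.27 to 0.25 without 1 library), NPC2 (0.050 with upper-quartile factors and -0.043 to 0.0018 without 1 library), HEXA (-0.022 with library totals and -0.050 to 0.19 without 1 library) and TFEB (-0.016 with library totals). Without 1 library a group holds a lone sample, assumed to vary like the other group. The cause of these changes was not tested. The deviations of same-numbered libraries from their group means correlated at -0.034 over 18540 genes, so the numbers were not taken to pair them. With the replicate block 22 of the 37 rose and 6 fell (all genes 4870 and 5093), a median of 0.28.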

Other observations

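Some lysosomal genes that many cells use were listed near 0 in these tables. GALC, the galactocerebrosidase, had no count in any library, and 0% of its 50-base words occur in another gene. CD68 had 0 and 0.047 CPM in siLMNA cells and 0 in both siLacZ libraries, and 92.6% of its 50-base words also occur in another annotated gene. The V-ATPase ring subunit ATP6V0C (0.585 and 0.442 CPM in siLMNA cells, 0.313 and 0.360 CPM in siLacZ cells) shares 87.3% of its words, the transporter SPNS1 (0.562 and 0.512 CPM in siLMNA cells, 0.716 and 0.381 CPM in siLacZ cells) 88.2%, CLN3 (0.562 and 0.442 CPM in siLMNA cells, 0.694 and 0.402 CPM in siLacZ cells) 44.2% and GABARAP (0.351 and 0.465 CPM in siLMNA cells, 0.403 and 0.487 CPM in siLacZ cells) 42.0%. The part that shared sequence has in the low values of the genes other than GALC was not tested.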
